A study of Mus musculus with 10 samples.

Results

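The genes of the respiratory chain and of the ATP synthase were followed in RNA sequencing of precursors of conventional dendritic cells (cDCs) from mouse spleen. Members were chosen by gene name (Nduf, Sdh, Uqcr, Cox4 to Cox8 except Cox6a2, Atp5, and the mitochondrially encoded mt-Nd, mt-Cyt, mt-Co and mt-Atp genes, without pseudogene names) and by a level above 0 log2 RPKM in at least 5 of the 10 libraries. RPKM counts the reads of a gene per length of its exons and per size of the library. The names matched 109 of 52550 rows, and 99 of these were members, 97 of them above 0 log2 RPKM in all 10 libraries. They comprise 86 nuclear genes and 13 mitochondrially encoded ones. The nuclear ones are 35 subunits of complex I, 4 of complex II, 8 of complex III, 12 of complex IV and 15 of the ATP synthase, and 12 genes that are no subunits. These are 7 complex I assembly factors (Ndufaf), 3 complex II assembly factors (Sdhaf), and Atp5s and Atp5sl. The level chose the members and is given as a description.

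The study compared CD11c-cre Adam10fl/fl mice (KO) with wild-type mice (WT), all on the C57BL/6 strain, in pre-cDC2 and pre-cDC1, the precursors committed to each cDC lineage. There were 2 KO and 2 WT libraries of pre-cDC2, and 3 KO and 3 WT libraries of pre-cDC1. The WT pre-cDC2 libraries carry the replicate numbers 2 and 3, and the KO pre-cDC2 libraries 1 and 2. ADAM10 cuts proteins off the cell surface, and by the title of the series one of these is FLT3L, a growth factor for dendritic cells. Cre made under the CD11c promoter acts in any cell that expresses CD11c, not in cDC precursors alone. No label says whether replicates came from separate animals, so the p-values measure only the spread between libraries, which may be technical. The sources used here give no age, no sort gates and no Cre status of the WT mice, and no treatment is labelled.

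Oxidative phosphorylation takes place at the inner mitochondrial membrane. Complex I (NADH dehydrogenase) and complex II (succinate dehydrogenase) pass electrons through ubiquinone to complex III (cytochrome bc1). Cytochrome c carries them on to complex IV (cytochrome c oxidase), which reduces oxygen. Complexes I, III and IV pump protons, and the ATP synthase uses their return to make ATP. Core subunits carry the redox centres and proton channels, and many small supernumerary subunits surround them. Most subunits are made from nuclear genes, while the most hydrophobic core subunits are made from mitochondrial DNA, except in complex II, which is wholly nuclear.

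Reads recovered from the deposited values totalled 7862449 to 13177686 per library. The targeted gene Adam10 had 4.24 and 4.11 log2 RPKM in the libraries labelled KO and 1.76 and 4.53 in those labelled WT of pre-cDC2, and -2.45, -3.90 and -1.50 in KO against -0.64, 0.13 and -2.29 in WT of pre-cDC1. KO and WT overlapped in both cell types, and in pre-cDC2 the KO libraries were not low. The values sum all exons of Adam10, including any outside the deleted part, so its level does not check the labels, and KO and WT stand below for what the labels say. Mitochondrially encoded members took 0.999% to 2.15% of the reads and the 74 nuclear subunits 0.600% to 0.685%. WT pre-cDC2 replicate 2 stood apart, with the lowest mitochondrial share. Its mean over 20 T cell markers was 2.42 log2 RPKM, against 6.41 in WT replicate 3 and 5.97 to 6.00 in KO pre-cDC2. Its mean over 15 NK cell markers was 1.96 log2 RPKM, against 6.39 in WT replicate 3 and 6.25 to 6.28 in KO pre-cDC2. Over 10 genes of the cDC2 programme it had 6.11 log2 RPKM, against 4.37 to 4.60 in the other pre-cDC2 libraries. Over 9 core cDC genes it had 7.43, against 6.63 to 6.85, and over 10 genes of the cDC1 programme 2.67, against 1.81 to 2.08. Which pre-cDC2 library best matches its label was not tested. The 10 genes of the cDC1 programme averaged 1.81 to 2.67 log2 RPKM over the pre-cDC2 libraries and 7.11 to 7.59 over the pre-cDC1 libraries. The 10 genes of the cDC2 programme averaged 4.37 to 6.11 log2 RPKM in pre-cDC2 and 1.51 to 3.74 in pre-cDC1. The label of the pre-cDC1 libraries therefore had its markers, while the pre-cDC2 libraries held cDC2 genes together with T and NK cell transcripts and plasmacytoid DC genes, which averaged 4.56 to 4.90 log2 RPKM in KO and 4.15 to 5.48 in WT pre-cDC2, above the 0.88 to 2.11 of pre-cDC1. In pre-cDC1 the following marker lists differed by genotype without overlap. The cDC1 programme averaged 7.52 to 7.59 log2 RPKM in KO and 7.11 to 7.17 in WT, and the cDC2 programme 1.51 to 2.44 in KO and 3.12 to 3.74 in WT. Monocyte genes averaged 1.69 to 2.82 in KO against 3.29 to 3.69 in WT, NK cell markers -2.87 to -1.40 against 0.26 to 0.78, and T cell markers -3.40 to -2.57 against -1.08 to -0.23. Plasmacytoid DC genes averaged 0.88 to 1.72 in KO against 1.95 to 2.11 in WT. The 13 B cell genes, of which 5 were tested, averaged -4.08 to -2.01 against -1.99 to -0.82. Erythroid genes differed by genotype in pre-cDC2, and all 11 tested ones were positive, 2 of them called. Over 15 genes they averaged 0.43 to 1.16 log2 RPKM in KO, against -3.84 to -3.61 in WT pre-cDC2, where Epb42, Rhag, Tspo2 and Slc4a1 were among those with 0 reads. In pre-cDC1 8 of the 11 were positive, with a median of 1.84 log2 and 0 called, and their library means overlapped (-0.83 to -0.11 in KO and -1.81 to 0.08 in WT). The part of these lists in the values of the members was not tested. In bulk RNA, a change in the number of cells of a type cannot be told apart from a change in RNA per cell.

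Levels, taken per kilobase as the mean of the 4 group means, spanned 7.20 log2 units within the ATP synthase, 5.03 within complex IV, 3.67 within complex III and 3.13 within complex II. The highest nuclear levels were those of Cox7a2l (8.16 log2 RPKM), a relative of Cox7a2, and Atp5b (8.06), the catalytic beta subunit. In complexes II and III, Sdha (6.90), the flavoprotein of succinate dehydrogenase, and Uqcrfs1 (6.86), the Rieske iron-sulphur protein, were highest. The lowest of each complex were Uqcrq (3.18), Cox6c (3.12), Sdhc (3.77), Ndufab1 (1.59) and Atp5l (0.86). RPKM divides by all annotated exon bases, which come to 6443 for Atp5l although its coding part has 309, so its level per coding base is higher than its RPKM shows. Among assembly factors the ranges ran from Ndufaf7 (3.82) to Ndufaf5 (1.79), and from Sdhaf2 (4.31) to Sdhaf1 (0.72).

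The 10 genes of the name rule that did not reach the level include 7 paralogues of members. Of these, Cox4i2, Cox7b2, Cox8b, Cox8c and Ndufa4l2 had 0 reads in all 10 libraries. Cox7a1, the heart and muscle form, had 0 to 3 reads per library. Cox6b2, the testis form, was above 0 log2 RPKM in 3 libraries. The other 3 genes were the complex I subunit Ndufb2 and the assembly factor Sdhaf3, each above 0 in 1 library, and the assembly factor Ndufaf2, above 0 in 2. Just inside the threshold lay Sdhaf1, above 0 in 8 libraries with a mean of 0.72 log2 RPKM, and just outside it lay Ndufaf2 with a mean of -0.30 and Cox6b2 with -0.50. The members hold the paralogues Cox4i1, Cox6a1, Cox6b1, Cox7a2, Cox8a and Ndufa4.

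KO was set against WT within each cell type to ask which transcripts go with the Adam10 genotype. Small nuclear subunits had higher values in KO than in WT in both cell types, such as Cox6a1 of complex IV (by 1.06 log2 in pre-cDC2 and 0.94 in pre-cDC1), Ndufa4 (1.11 and 0.99) and Atp5e of the ATP synthase (1.12 and 1.03). The complex II subunits and the large core subunits did not share this direction. No member passed the test over all genes (limma, Benjamini-Hochberg adjusted p below 0.05) in either cell type. In pre-cDC2 the test called 10 of 14787 genes (0.0676%), and in pre-cDC1 4 (0.0271%), so calls were rare for any gene. At an unadjusted p below 0.05, 30 members were higher and 1 lower in KO pre-cDC2, against a background of 3.56% higher and 3.12% lower among all tested genes. In pre-cDC1 28 were higher and 6 lower, against 3.89% and 5.14%.

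Counted by library, 47 members had every KO value above every WT value in pre-cDC2, and 15 had every KO value below, against a background of 15.6% and 14.6% of all tested genes. In pre-cDC1 the counts were 27 and 7, against 7.88% and 9.27%. The median difference over the 99 members was 0.33 log2 in pre-cDC2, and 0.22 in pre-cDC1, beside 0.0048 and -0.0038 over all tested genes. In both cell types at once, 23 members lay higher in every KO than in every WT library of that cell type, as did 2.49% of all tested genes. They were Atp5e, Atp5g1, Atp5j, Cox5b, Cox6a1, Cox6b1, Cox6c, Cox7a2, Cox7b, Cox7c, Cox8a, Ndufa12, Ndufa13, Ndufa4, Ndufa6, Ndufb3, Ndufb4, Ndufb7, Ndufs6, Uqcr10, Uqcrb, Uqcrq and mt-Nd3. Lower in every KO library of both cell types were 3 members, Ndufa10, Sdhaf1 and Sdhd (2.12% of all tested genes).

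**Figure D1:**
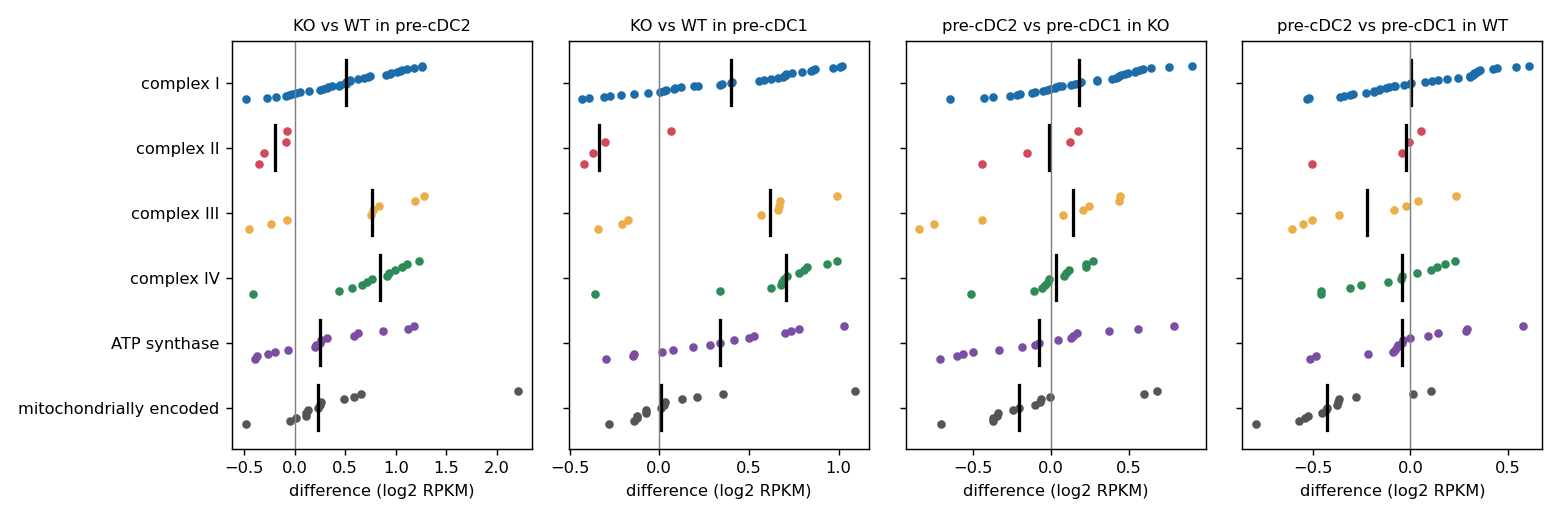
Differences on the log2 RPKM scale, one point per subunit (x axis), by complex (rows, within which points are sorted by value), for KO minus WT and for pre-cDC2 minus pre-cDC1. Black bars are medians. Complexes I, III and IV have medians of 0.40 to 0.84 log2 in both panels of KO minus WT, while the median of complex II lies below 0.

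In complex I, 29 of 35 subunits had a positive KO minus WT difference in pre-cDC2, with a median of 0.50 log2, and 28 in pre-cDC1, with a median of 0.40. Ndufs6, a zinc-binding subunit of the electron input module, had pre-cDC2 values of 4.15 and 3.68 log2 RPKM in KO against 2.65 and 2.81 in WT, and pre-cDC1 values of 3.63, 3.66 and 4.06 in KO against 3.0, 3.49 and 2.79 in WT. All KO values lay above all WT values in both cell types. The difference was (limma, ± SE) 1.18 ± 0.28 log2 (adjusted p = 0.388) in pre-cDC2 and 0.69 ± 0.23 log2 (adjusted p = 0.38) in pre-cDC1. Ndufb6, a membrane arm subunit, had 4.35 and 3.48 log2 RPKM in KO pre-cDC2, where WT had 3.32 and 3.50, and 3.96, 3.68 and 4.02 in KO pre-cDC1, where WT had 2.80, 2.77 and 3.04. Its KO and WT libraries overlapped in pre-cDC2 and were apart in pre-cDC1, where KO exceeded WT by 1.02 ± 0.23 log2 (adjusted p = 0.175).

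Other accessory subunits of complex I reached 1.26 log2 in pre-cDC2 (Ndufa1 and Ndufa5, both small proteins) and 1.01 in pre-cDC1 (Ndufb3). Ndufa9, a large subunit of the quinone region, had -0.49 and -0.27.

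The 7 nuclear core subunits, which hold the flavin, the iron-sulphur clusters and the quinone site, showed no such shift. In each cell type 3 of the 7 differences were positive, and the highest were 0.32 log2 (Ndufs7) in pre-cDC2 and 0.09 (Ndufv2) in pre-cDC1. Ndufs3, a core subunit of the hydrophilic arm, had 4.48 and 4.59 log2 RPKM in the KO and 4.47 and 4.32 in the WT libraries of pre-cDC2, beside 3.93, 3.98 and 4.34 in the KO and 4.34, 4.56 and 4.52 in the WT libraries of pre-cDC1. It lay higher in every KO library of pre-cDC2 and lower in every KO library of pre-cDC1, by 0.14 ± 0.18 log2 (adjusted p = 0.905) and -0.39 ± 0.15 log2 (adjusted p = 0.458), although the nearest KO and WT values nearly met in both. Ndufab1, the mitochondrial acyl carrier protein, had pre-cDC2 values of 2.19 and 1.47 log2 RPKM in KO against 1.66 and 1.44 in WT, and pre-cDC1 values of 1.99, 1.82 and 1.52 in KO against 1.01, 1.46 and 1.20 in WT, with overlap in pre-cDC2 and none in pre-cDC1. Ndufa10, an accessory subunit related to nucleoside kinases, had 4.93 and 4.96 log2 RPKM in KO pre-cDC2, where WT had 5.15 and 5.28, and 5.01, 4.60 and 4.76 in KO pre-cDC1, where WT had 5.22, 5.20 and 5.23, lower in every KO library by -0.27 ± 0.16 log2 (adjusted p = 0.822) and -0.43 ± 0.13 log2 (adjusted p = 0.329). Ndufb10, a cysteine-rich accessory subunit, had 5.08 and 4.97 log2 RPKM in the KO and 4.46 and 4.21 in the WT libraries of pre-cDC2, beside 4.57, 4.23 and 4.56 in the KO and 4.27, 4.66 and 4.07 in the WT libraries of pre-cDC1, with KO above WT in pre-cDC2 and overlap in pre-cDC1.

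Complex II went the other way. All 4 subunits had negative KO minus WT differences in pre-cDC2 (median -0.20 log2), and 3 of 4 in pre-cDC1 (median -0.34). Sdhd, a membrane anchor, had pre-cDC2 values of 5.93 and 6.17 log2 RPKM in KO against 6.59 and 6.22 in WT, and pre-cDC1 values of 6.70, 6.19 and 6.58 in KO against 6.86, 6.83 and 7.04 in WT. Every KO value lay below every WT value, by -0.36 ± 0.21 log2 (adjusted p = 0.822) in pre-cDC2 and -0.42 ± 0.17 log2 (adjusted p = 0.495) in pre-cDC1. Sdhc, the other anchor, had 3.70 and 3.61 log2 RPKM in KO pre-cDC2, where WT had 4.0 and 3.92, and 3.92, 3.11 and 3.58 in KO pre-cDC1, where WT had 3.73, 4.09 and 3.90, with overlap in pre-cDC1. Sdha had 6.78 and 6.86 log2 RPKM in the KO and 6.88 and 6.91 in the WT libraries of pre-cDC2, beside 6.94, 7.18 and 6.80 in the KO and 6.75, 6.95 and 7.01 in the WT libraries of pre-cDC1, lower in both KO libraries of pre-cDC2 and overlapping in pre-cDC1. Sdhb, the iron-sulphur subunit, gave differences of -0.09 ± 0.27 log2 (adjusted p = 0.974) and -0.30 ± 0.22 log2 (adjusted p = 0.767).

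In complex III the direction followed the kind of subunit. All 5 small subunits, Uqcrb, Uqcrq, Uqcrh, Uqcr10 and Uqcr11, were positive in both cell types, with medians of 0.83 log2 in pre-cDC2 and 0.67 in pre-cDC1. The Rieske protein Uqcrfs1 and the core proteins Uqcrc1 and Uqcrc2 were negative in both. Among the small ones Uqcr11 had 1.27 log2 in pre-cDC2 and 0.66 in pre-cDC1, Uqcr10 1.19 and 0.67, and Uqcrh, the hinge protein at the cytochrome c1 face, 0.78 and 0.57. Uqcrb, which binds near the ubiquinone site, had pre-cDC2 values of 4.67 and 4.65 log2 RPKM in KO against 3.95 and 3.87 in WT, and pre-cDC1 values of 5.10, 5.36 and 6.06 in KO against 4.42, 4.64 and 4.49 in WT. All KO values exceeded all WT values, by 0.75 ± 0.27 log2 (adjusted p = 0.641) and 0.99 ± 0.22 log2 (adjusted p = 0.169). Uqcrq, another small subunit, had 4.02 and 3.31 log2 RPKM in KO pre-cDC2, where WT had 2.87 and 2.79, and 3.19, 3.41 and 3.77 in KO pre-cDC1, where WT had 3.01, 2.51 and 2.85, likewise apart. Uqcrfs1 had 6.25 and 6.38 log2 RPKM in the KO and 6.81 and 6.73 in the WT libraries of pre-cDC2, beside 7.30, 6.86 and 7.04 in the KO and 7.22, 7.37 and 7.23 in the WT libraries of pre-cDC1, lower in both KO libraries of pre-cDC2 by -0.45 ± 0.17 log2 (adjusted p = 0.655) and overlapping in pre-cDC1. Uqcrc2 had pre-cDC2 values of 5.26 and 5.72 log2 RPKM in KO against 5.84 and 5.61 in WT, and pre-cDC1 values of 5.92, 5.91 and 5.97 in KO against 6.19, 6.27 and 6.36 in WT, with overlap in pre-cDC2 and every KO value lower in pre-cDC1, by -0.34 ± 0.14 log2 (adjusted p = 0.503).

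Complex IV had the largest medians of the complexes, 0.84 log2 in pre-cDC2 and 0.71 in pre-cDC1, with 11 of 12 subunits positive in each. Cox6a1, the widely expressed form of a regulatory subunit (ENSMUSG00000041697.8, chromosome 5, 115345642 to 115348981, GRCm38), had 6.42 and 6.00 log2 RPKM in KO pre-cDC2, where WT had 5.24 and 5.06, and 5.78, 5.80 and 6.36 in KO pre-cDC1, where WT had 5.13, 4.92 and 5.08. The KO values stood clear of the WT values in both cell types, by 1.06 ± 0.23 log2 (adjusted p = 0.316) and 0.94 ± 0.18 log2 (adjusted p = 0.132), the smallest p of any member in each. Ndufa4, once counted to complex I and now placed in complex IV, had 5.09 and 4.74 log2 RPKM in the KO and 3.45 and 4.16 in the WT libraries of pre-cDC2, beside 4.67, 4.65 and 5.20 in the KO and 3.96, 3.91 and 3.67 in the WT libraries of pre-cDC1. Its differences were 1.11 ± 0.28 log2 (adjusted p = 0.411) and 0.99 ± 0.23 log2 (adjusted p = 0.177).

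Cox8a, a small membrane subunit, had pre-cDC2 values of 7.02 and 6.84 log2 RPKM in KO against 5.98 and 6.05 in WT, and pre-cDC1 values of 6.38, 6.48 and 7.14 in KO against 5.60, 5.99 and 5.93 in WT. Cox7a2, the form used outside muscle, had 5.18 and 4.61 log2 RPKM in KO pre-cDC2, where WT had 4.15 and 4.22, and 4.79, 4.98 and 5.25 in KO pre-cDC1, where WT had 4.39, 4.29 and 4.01. Both lay higher in every KO library. Cox6b1, at the face toward cytochrome c, had 6.16 and 5.83 log2 RPKM in the KO and 5.21 and 4.79 in the WT libraries of pre-cDC2, beside 5.62, 5.68 and 6.33 in the KO and 5.28, 5.24 and 5.24 in the WT libraries of pre-cDC1. Cox6c, another small subunit, had pre-cDC2 values of 3.49 and 3.48 log2 RPKM in KO against 2.90 and 2.94 in WT, and pre-cDC1 values of 3.12, 3.34 and 3.72 in KO against 2.62, 2.81 and 2.65 in WT. These again showed no overlap. Of the others, Cox7b had differences of 1.23 log2 in pre-cDC2 and 0.81 in pre-cDC1, Cox7c 0.94 and 0.68, Cox5a 0.77 and 0.68, and Cox5b, which binds zinc, 0.66 and 0.71. Cox4i1, which carries a nucleotide binding site, had 6.92 and 6.56 log2 RPKM in KO pre-cDC2, where WT had 6.44 and 6.16, and 6.77, 6.40 and 7.10 in KO pre-cDC1, where WT had 6.35, 6.57 and 6.33, with overlap in pre-cDC1. Cox7a2l alone was negative, with 7.75 and 7.66 log2 RPKM in the KO and 8.10 and 8.14 in the WT libraries of pre-cDC2, beside 8.54, 7.91 and 8.21 in the KO and 8.53, 8.70 and 8.50 in the WT libraries of pre-cDC1 and differences of -0.41 ± 0.21 log2 (adjusted p = 0.789) and -0.36 ± 0.17 log2 (adjusted p = 0.582). Cox7a2 and Cox7a2l, related in sequence, thus had differences of opposite sign in both cell types, although neither passed the test.

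**Figure D2:**
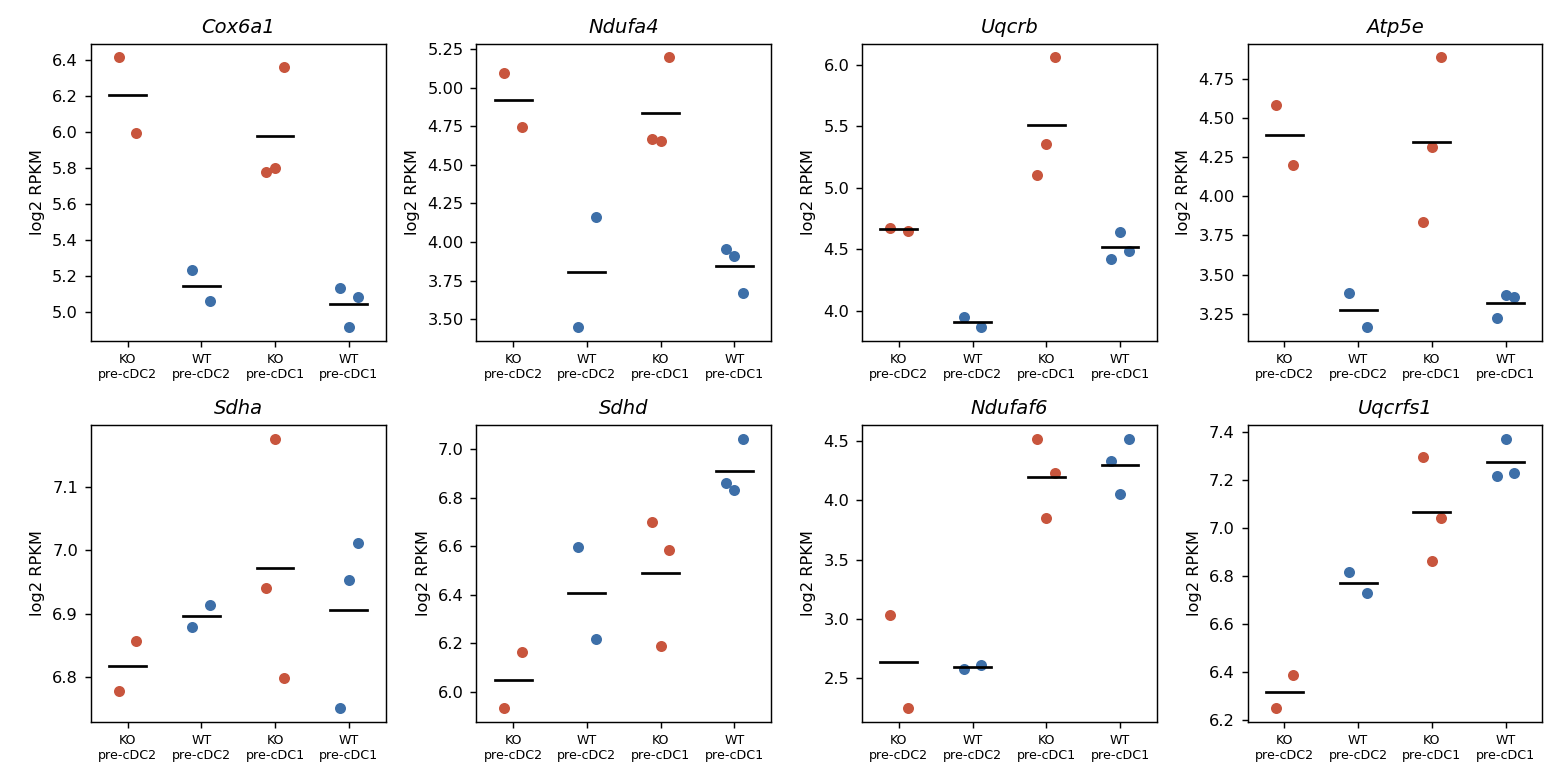
Log2 RPKM (y axis, a separate scale per panel) of 8 members in each library, with KO in red, WT in blue and black bars for group means. Cox6a1, Ndufa4, Uqcrb and Atp5e lie higher in every KO library of each cell type, Sdhd lies lower, and Ndufaf6 and Uqcrfs1 part the cell types.

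In the ATP synthase, 10 of 15 subunits were positive in pre-cDC2 (median 0.25 log2) and 12 in pre-cDC1 (median 0.34). Atp5e, a small subunit of the central stalk, had pre-cDC2 values of 4.58 and 4.20 log2 RPKM in KO against 3.38 and 3.16 in WT, and pre-cDC1 values of 3.83, 4.31 and 4.89 in KO against 3.22, 3.37 and 3.36 in WT, with every KO value higher. Its difference was 1.12 ± 0.31 log2 (adjusted p = 0.451) in pre-cDC2 and 1.03 ± 0.25 log2 (adjusted p = 0.202) in pre-cDC1. Atp5k, a membrane subunit, had 1.18 log2 in pre-cDC2 and 0.53 in pre-cDC1, and the stalk subunits Atp5j 0.63 and 0.78, Atp5h 0.32 and 0.34, and Atp5o 0.26 and 0.28. The catalytic subunit Atp5b had 7.52 and 7.98 log2 RPKM in KO pre-cDC2, where WT had 8.08 and 7.96, and 8.33, 8.26 and 8.17 in KO pre-cDC1, where WT had 8.25, 8.20 and 8.25, with overlap in both cell types, and its partner Atp5a1, the alpha subunit, had differences of -0.19 and 0.08. Atp5c1, the gamma subunit of the rotor, gave differences of -0.39 ± 0.19 log2 (adjusted p = 0.768) and -0.30 ± 0.15 log2 (adjusted p = 0.623), and Atp5f1, of the peripheral stalk, by -0.38 ± 0.18 log2 (adjusted p = 0.766) and -0.15 ± 0.15 log2 (adjusted p = 0.857).

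The nuclear genes Atp5g1, Atp5g2 and Atp5g3 encode the same mature subunit c, which forms the rotor ring. Atp5g1 had 3.22 and 2.81 log2 RPKM in the KO and 1.99 and 2.28 in the WT libraries of pre-cDC2, beside 2.65, 2.75 and 3.21 in the KO and 2.18, 2.16 and 2.07 in the WT libraries of pre-cDC1, higher in every KO library. Atp5g2 had pre-cDC2 values of 3.93 and 4.42 log2 RPKM in KO against 3.89 and 4.04 in WT, and pre-cDC1 values of 4.59, 4.50 and 5.11 in KO against 4.16, 4.12 and 3.82 in WT, with overlap in pre-cDC2 and none in pre-cDC1. Atp5g3 had 3.82 and 3.58 log2 RPKM in KO pre-cDC2, where WT had 3.21 and 3.79, and 3.56, 3.56 and 4.21 in KO pre-cDC1, where WT had 3.55, 3.66 and 3.56, with overlap in both. Their differences were 0.88 ± 0.28 log2 (adjusted p = 0.553), 0.21 ± 0.25 log2 (adjusted p = 0.896) and 0.20 ± 0.28 log2 (adjusted p = 0.911) in pre-cDC2, and 0.73 ± 0.23 log2 (adjusted p = 0.331), 0.70 ± 0.21 log2 (adjusted p = 0.3) and 0.19 ± 0.22 log2 (adjusted p = 0.883) in pre-cDC1. The difference between paralogues was not tested. Atp5l, a membrane subunit, had 1.19 and 1.00 log2 RPKM in the KO and 0.88 and 0.79 in the WT libraries of pre-cDC2, beside 0.35, 1.05 and 1.49 in the KO and 0.38, 0.34 and 0.92 in the WT libraries of pre-cDC1.

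The genes that are no subunits were mixed. Complex I assembly factors had medians of 0.04 log2 in pre-cDC2 and -0.10 in pre-cDC1, from -0.33 (Ndufaf3) to 0.52 (Ndufaf8) and from -0.91 (Ndufaf5) to 0.66 (Ndufaf8). Sdhaf4, which helps to join Sdha and Sdhb, had 0.80 and 0.85. Ndufaf7 had pre-cDC2 values of 3.65 and 3.62 log2 RPKM in KO against 3.77 and 3.77 in WT, and pre-cDC1 values of 4.22, 3.35 and 3.81 in KO against 4.49, 3.67 and 4.14 in WT, lower in both KO libraries of pre-cDC2 and overlapping in pre-cDC1. Ndufaf5, whose human form hydroxylates NDUFS7, had 2.17 and 1.82 log2 RPKM in KO pre-cDC2, where WT had 1.58 and 2.35, and 0.40, 2.08 and 0.95 in KO pre-cDC1, where WT had 2.27, 2.11 and 1.77, with a wide spread in KO pre-cDC1. Sdhaf1, which helps to insert iron-sulphur clusters into Sdhb, had 0.82 and 0.81 log2 RPKM in the KO and 1.25 and 1.57 in the WT libraries of pre-cDC2, beside -0.41, -0.35 and 0.23 in the KO and 0.81, 0.95 and 0.67 in the WT libraries of pre-cDC1, lower in every KO library. Sdhaf2, which helps to attach flavin to Sdha, had pre-cDC2 values of 4.20 and 4.36 log2 RPKM in KO against 4.41 and 4.64 in WT, and pre-cDC1 values of 4.22, 3.91 and 4.51 in KO against 4.56, 4.13 and 4.03 in WT, with the same pattern of overlap as Ndufaf7.

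The KO minus WT difference ran with the coding length of the subunit, taken as the longest coding part among all annotated transcripts of the gene. All 32 nuclear subunits with a coding part of at most 400 bases had a positive difference in both cell types, with medians of 0.93 log2 in pre-cDC2 and 0.69 in pre-cDC1. Of the 42 longer ones, 23 were positive in pre-cDC2 and 25 in pre-cDC1, with medians of 0.10 and 0.05. These 42 include all 4 subunits of complex II and the 3 subunits of complex III that were negative in both cell types. Spearman's rho across the 74 subunits was -0.81 in pre-cDC2 and -0.74 in pre-cDC1. This is a description across genes, which share libraries and depth. With total exon length rho was -0.54 and -0.41. The split at 400 bases was chosen after the values were seen, and Cox7a2l, negative in both, lies just beyond it at 402 coding bases. A slightly higher split, or the length of a shorter transcript, could place Cox7a2l among the short subunits. These would then not all be positive.

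**Figure D3:**
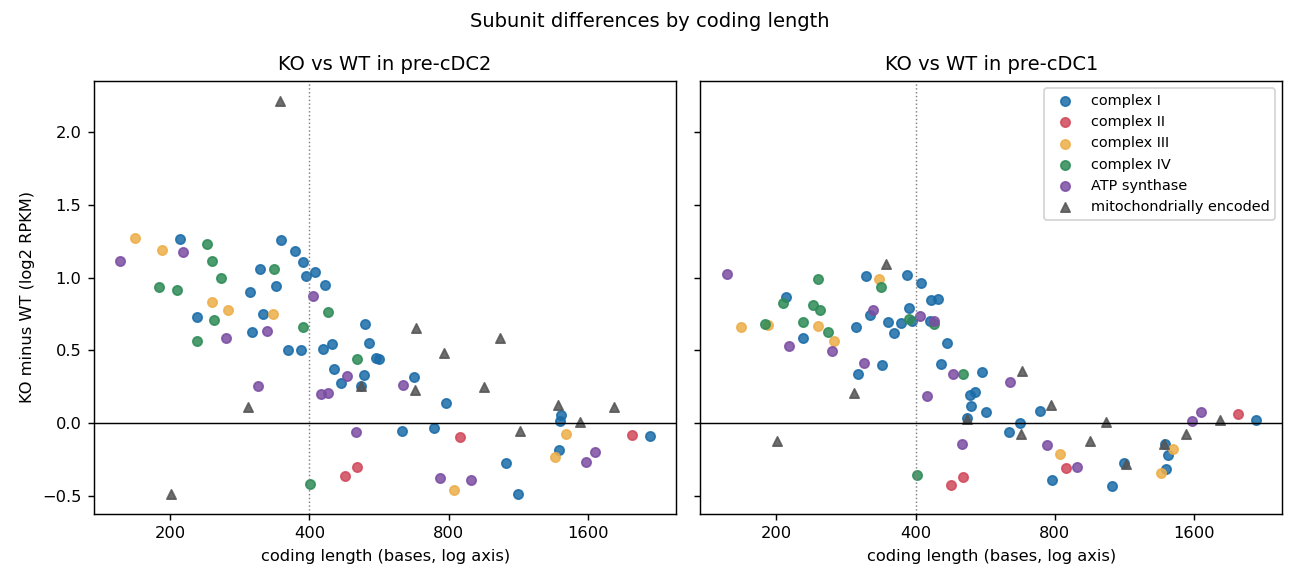
KO minus WT difference on the log2 RPKM scale (y axis) against coding length in bases (x axis, log scale), with 1 point per subunit and colours for complexes. The dotted line marks 400 bases, and all nuclear subunits to its left lie above 0 in both panels.

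By library, the 32 short subunits averaged 4.58 and 4.17 log2 RPKM in KO, against 3.49 and 3.47 in WT pre-cDC2. In pre-cDC1 they averaged 3.79, 4.07 and 4.68 in KO, against 3.46, 3.51 and 3.40 in WT. The 42 long subunits averaged 4.97 and 4.89 in KO pre-cDC2, where WT had 4.83 and 4.77, and 4.98, 4.77 and 5.13 in KO pre-cDC1, where WT had 4.83, 4.91 and 4.83. The short subunits were thus apart by genotype in every library, with the widest spread in KO pre-cDC1. The split was chosen with these values known, so this separation is a description and no further support. KO pre-cDC1 replicate 3 carried much of the size, and without it the median over all 74 nuclear subunits was 0.16 log2, against 0.46 with it, and that over the short ones was 0.49.

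**Figure D4:**
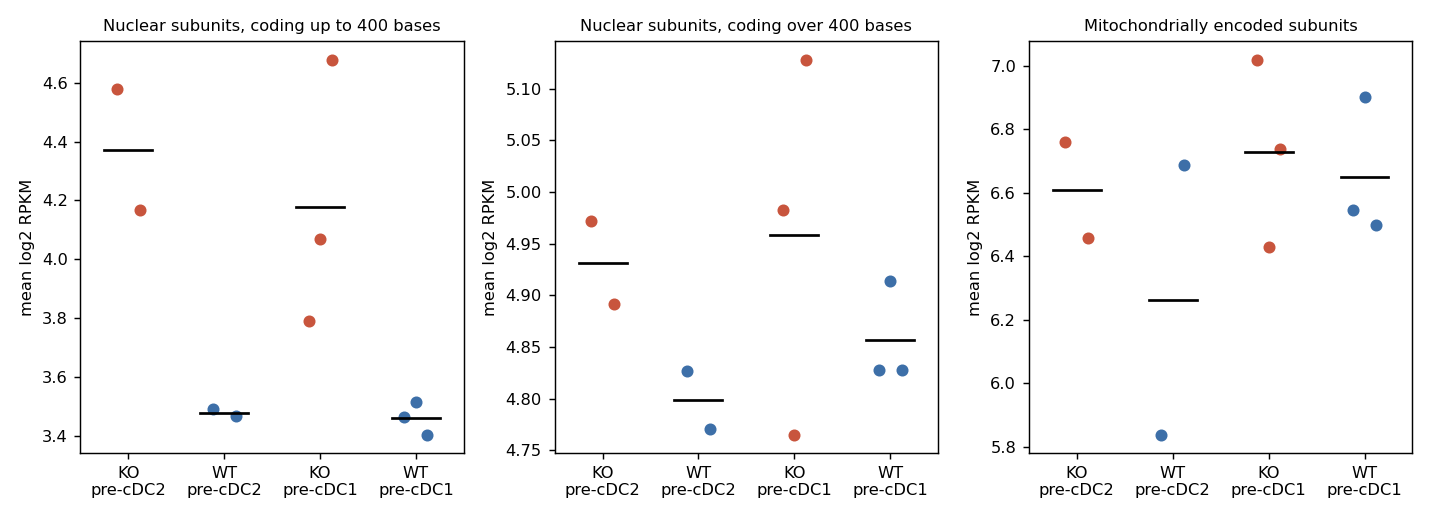
Mean log2 RPKM per library (y axis) over 32 nuclear subunits with up to 400 coding bases, 42 with more, and 13 mitochondrially encoded subunits, with black bars for group means. The short subunits, split off after the values were seen, lie between 3.79 and 4.68 in KO and between 3.40 and 3.51 in WT libraries.

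Other protein-coding genes did not have this gradient over all lengths. Across 10707 of them, cytosolic ribosomal protein genes included, Spearman's rho with coding length was positive, at 0.10 in each cell type. Outside the ribosome, the share of positive differences fell with coding length only up to 1000 bases. Among protein-coding genes outside the chain and the cytosolic ribosome with at most 300 coding bases, 58.9% of 202 were positive in pre-cDC2 (median 0.17 log2) and 54.5% in pre-cDC1 (median 0.07). Above 300 and up to 400 coding bases 58.6% were positive in pre-cDC2 and 53.3% in pre-cDC1, above 400 and up to 600 the shares were 45.9% and 41.6%, above 600 and up to 1000 they were 37.4% and 36.3%, and above 1000 they were 51.1% and 50.2%. The difference between the chain and these genes was not tested. All 18 chain subunits with at most 300 coding bases were positive in both cell types. All 10 cytosolic ribosomal protein genes with at most 300 coding bases were positive too, with medians of 1.25 log2 in pre-cDC2 and 0.96 in pre-cDC1. Over all 82 ribosomal protein genes the medians were 0.63 and 0.60, with 66 and 71 positive and 0 called. The 22 G2/M genes also had higher values in KO, with 19 positive in pre-cDC2 (median 1.01 log2) and 22 in pre-cDC1 (median 1.02), and 0 called. Their part in the subunit values was not tested.

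Lists of other mitochondrial functions and of glycolysis had medians between -0.31 and 0.32 log2, with 0 genes called in KO against WT. The 77 mitochondrial ribosomal protein genes had medians of -0.01 log2 in pre-cDC2 and 0.02 in pre-cDC1, with 38 and 40 positive. The 19 genes of the TCA cycle and pyruvate dehydrogenase had medians of -0.11 and -0.03, and the 19 glycolysis genes -0.07 and -0.06. Of 27 tested genes of mitochondrial transcription, RNA processing and DNA maintenance the medians were 0.05 in both cell types. The 18 tested complex IV assembly genes had 0.20 and 0.10, the 10 of complexes III and V 0.32 and -0.06, the 14 mitochondrial translation factors -0.09 and 0.08, and the 10 tested nuclear regulators 0.17 and 0.04. The 9 adenine nucleotide, phosphate and outer membrane channels were all negative in pre-cDC2 (median -0.31) and had a median of -0.03 in pre-cDC1. Of Cyc1 and Cycs, the haem subunit of complex III and the mobile carrier, 1 of 2 was positive in each cell type.

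The mitochondrially encoded subunits are transcribed together as long polycistronic RNAs that are cut at transfer RNAs. Their KO minus WT medians were 0.23 log2 in pre-cDC2, with 11 of 13 positive, and 0.01 in pre-cDC1, with 7 positive. The pre-cDC2 median was 0.58 without WT replicate 3 and -0.29 without WT replicate 2, the library that stood apart. Their levels lay between those of mt-Co1 at 12.4 log2 RPKM and mt-Nd3 at 1.37. A near-complete nuclear copy on chromosome 1 exists for 5 of the 13 genes. For mt-Co2, mt-Atp6, mt-Co3, mt-Nd3 and mt-Nd4l, 97.0% to 99.8% of all 151-base windows, the length of 1 read, are found unchanged in an annotated pseudogene. For mt-Nd4 the share was 59.1% and for mt-Co1 23.6%, while mt-Nd1, mt-Nd2, mt-Nd5, mt-Nd6, mt-Cytb and mt-Atp8 had none. Only annotated transcripts were searched, so a copy outside them would be missed. The gene mt-Atp8 lies between mt-Co2 and mt-Atp6, which both have copies on chromosome 1, so its lack of a shared window is uncertain. A single read from such a window cannot be given to one place. Reads were paired, and how often the mate could place a pair was not measured. The values of the 5 genes, and in part those of mt-Nd4 and mt-Co1, are therefore uncertain. So are those of mt-Atp8 and mt-Atp6, which overlap each other.

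Stretches of mt-Nd3 and mt-Co2 (GRCm38, given 5′ to 3′ along the gene) stand here with the same stretch of the pseudogene, to show how close they are. Capitals mark the only base that differs, T3C in mt-Nd3, counted from the first base of the gene. The mt-Nd3 stretch is chrM:9459-9518 on the plus strand, that of Gm28438 chr1:24613060-24613119 on the minus strand, that of mt-Co2 chrM:7323-7382 on the plus strand, and that of Gm28661 chr1:24615196-24615255 on the minus strand.
mt-Nd3: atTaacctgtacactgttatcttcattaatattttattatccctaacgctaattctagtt
Gm28438: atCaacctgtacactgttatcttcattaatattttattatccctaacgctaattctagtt
mt-Co2: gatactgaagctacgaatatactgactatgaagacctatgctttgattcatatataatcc
Gm28661: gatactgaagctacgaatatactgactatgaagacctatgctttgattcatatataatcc
Over 681 aligned bases mt-Co2 and Gm28661 had 0 differences, and over 345 aligned bases mt-Nd3 and Gm28438 had 1.

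**Figure D5:**
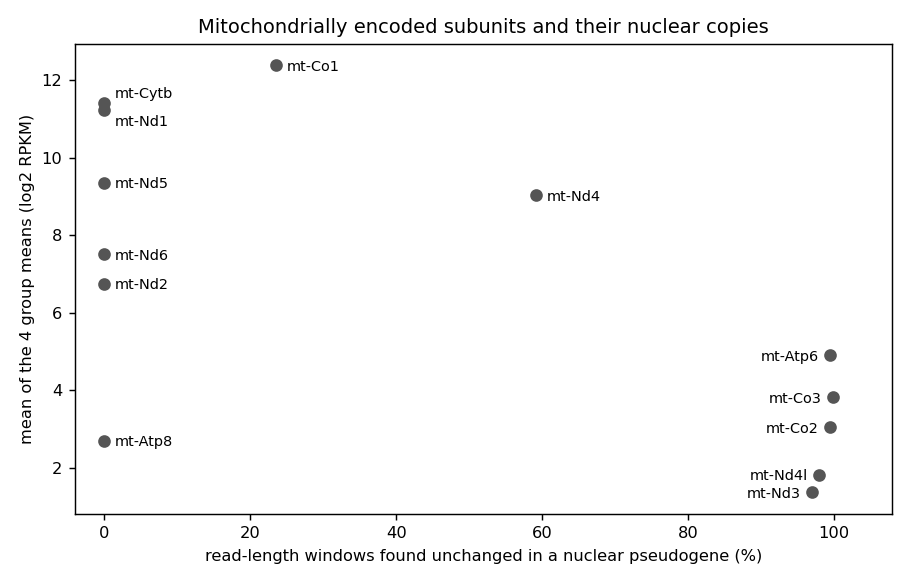
Level of each mitochondrially encoded subunit (y axis, mean of the 4 group means in log2 RPKM) against the percentage of its 151-base windows found unchanged in a nuclear pseudogene (x axis). The 5 genes at 97.0% to 99.8% lie below 5 log2 RPKM, as does mt-Atp8, for which no annotated pseudogene shared a window.

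Among the complex I subunits, mt-Nd1 had 11.41 and 11.13 log2 RPKM in KO pre-cDC2, where WT had 10.31 and 11.73, and 11.79, 10.73 and 11.29 in KO pre-cDC1, where WT had 11.35, 11.77 and 11.07. mt-Nd2 had 7.42 and 7.05 log2 RPKM in the KO and 6.06 and 7.25 in the WT libraries of pre-cDC2, beside 6.79, 6.06 and 6.81 in the KO and 6.50, 6.78 and 6.35 in the WT libraries of pre-cDC1. mt-Nd5 had pre-cDC2 values of 9.13 and 9.29 log2 RPKM in KO against 8.73 and 9.45 in WT, and pre-cDC1 values of 9.75, 9.37 and 9.60 in KO against 9.54, 9.68 and 9.43 in WT. In each, WT pre-cDC2 replicate 2, the library that stood apart, was the lowest of all or level with the lowest, and KO and WT overlapped. mt-Nd4 had 9.05 and 8.89 log2 RPKM in KO pre-cDC2, where WT had 8.40 and 9.28, and 9.42, 8.83 and 8.97 in KO pre-cDC1, where WT had 9.23, 9.35 and 9.06. mt-Nd6, encoded on the opposite strand to the other subunits, had 7.67 and 7.28 log2 RPKM in the KO and 6.90 and 7.54 in the WT libraries of pre-cDC2, beside 7.76, 7.47 and 7.82 in the KO and 7.62, 7.86 and 7.48 in the WT libraries of pre-cDC1. mt-Nd4l, with its nuclear copy, had pre-cDC2 values of 1.31 and 2.11 log2 RPKM in KO against 1.19 and 2.01 in WT, and pre-cDC1 values of 2.32, 2.48 and 1.46 in KO against 1.94, 1.79 and 1.90 in WT. None of these parted KO from WT. mt-Nd3 did, with 2.57 and 2.42 log2 RPKM in KO pre-cDC2, where WT had -0.14 and 0.70, and 1.78, 1.58 and 2.32 in KO pre-cDC1, where WT had 0.74, 1.40 and 0.26. These are 20 and 16 reads in KO pre-cDC2, where WT had 4 and 6, and 12, 10 and 13 reads in KO pre-cDC1, where WT had 5, 8 and 4. The difference was 2.21 ± 0.49 log2 (adjusted p = 0.342) in pre-cDC2 and 1.09 ± 0.40 log2 (adjusted p = 0.444) in pre-cDC1. Without WT pre-cDC2 replicate 3 the pre-cDC2 difference became 2.63 and passed the test (limma adjusted p = 0.0309), as did that of Ndufa4 (1.47, adjusted p = 0.0204). In that fit replicate 2, which stood apart, is the only WT pre-cDC2 library, and 7.09% of all tested genes were called.

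mt-Cytb, the only mitochondrially encoded subunit of complex III, had 11.36 and 10.94 log2 RPKM in the KO and 10.80 and 11.60 in the WT libraries of pre-cDC2, beside 12.02, 11.05 and 11.40 in the KO and 11.72, 11.99 and 11.61 in the WT libraries of pre-cDC1, with overlap in both cell types. The catalytic subunit of complex IV, mt-Co1, had pre-cDC2 values of 11.88 and 12.14 log2 RPKM in KO against 11.64 and 12.36 in WT, and pre-cDC1 values of 13.01, 12.46 and 12.68 in KO against 12.84, 12.93 and 12.61 in WT, also with overlap. mt-Co2, which receives electrons from cytochrome c, had 3.58 and 2.79 log2 RPKM in KO pre-cDC2, where WT had 2.36 and 2.69, and 3.60, 2.93 and 3.74 in KO pre-cDC1, where WT had 2.91, 3.22 and 3.06, with both KO values above both WT values in pre-cDC2. mt-Co3 had 4.18 and 3.70 log2 RPKM in the KO and 2.97 and 3.94 in the WT libraries of pre-cDC2, beside 4.51, 3.47 and 4.06 in the KO and 3.56, 4.13 and 3.96 in the WT libraries of pre-cDC1. Of the proton channel of the ATP synthase, mt-Atp6 had pre-cDC2 values of 5.14 and 4.68 log2 RPKM in KO against 4.13 and 5.23 in WT, and pre-cDC1 values of 5.33, 4.54 and 5.05 in KO against 4.79, 5.43 and 4.93 in WT. Its overlapping neighbour mt-Atp8 had 3.19 and 1.55 log2 RPKM in KO pre-cDC2, where WT had 2.54 and 3.16, and 3.12, 2.61 and 2.41 in KO pre-cDC1, where WT had 2.33, 3.39 and 2.78. In these last 3 genes KO and WT overlapped in both cell types.

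Nuclear and mitochondrially encoded subunits were then set side by side. The mean over the 74 nuclear subunits was 4.80 and 4.58 log2 RPKM in KO pre-cDC2 libraries, where WT had 4.25 and 4.21. In pre-cDC1 it was 4.47, 4.46 and 4.93 in KO, against 4.24, 4.31 and 4.21 in WT. As group means these are 4.69 ± 0.16 in KO and 4.23 ± 0.03 in WT pre-cDC2 (SD, n = 2 each), and 4.62 ± 0.27 in KO and 4.25 ± 0.05 in WT pre-cDC1 (SD, n = 3 each). The mean over the 13 mitochondrially encoded subunits was 6.76 and 6.46 log2 RPKM in KO pre-cDC2 libraries, where WT had 5.84 and 6.69. In pre-cDC1 it was 7.02, 6.43 and 6.74 in KO, against 6.55, 6.90 and 6.50 in WT. The nuclear means were apart by genotype and the mitochondrial means overlapped. These means give each subunit equal weight. As a share of reads, the nuclear subunits took 0.665% and 0.664% in KO and 0.644% and 0.628% in WT pre-cDC2. In pre-cDC1 their share overlapped, with 0.637%, 0.600% and 0.685% in KO and 0.610%, 0.628% and 0.613% in WT. In the log2 means, the nuclear difference exceeded the mitochondrial one by 0.12 log2 in pre-cDC2 and 0.29 in pre-cDC1, as a description without a test. Against the 6 mitochondrially encoded genes with no window shared with an annotated pseudogene, mt-Atp8 among them, the values were 0.35 and 0.45. In pre-cDC2 the value over all 13 genes rested on WT pre-cDC2 libraries that disagreed, and was 0.56 without replicate 2 and -0.33 without replicate 3. In pre-cDC1 it was 0.14 without KO replicate 3 and 0.51 without KO replicate 1.

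pre-cDC2 and pre-cDC1 were compared within each genotype, to ask how the precursors of the 2 lineages differ. The medians by complex lay near 0, between -0.08 log2 (ATP synthase) and 0.18 (complex I) in KO, and between -0.22 (complex III) and 0.01 (complex I) in WT. Few members were called, although 20.8% of all tested genes were called in KO and 11.5% in WT. In KO, 5 of 99 members were called, all lower in pre-cDC2, beside 10.1% of all tested genes called lower. In WT, 1 was called, also lower, beside 6.59%. Ndufaf6, a complex I assembly factor, was called in both. It had 3.03 and 2.25 log2 RPKM in KO pre-cDC2, against 4.52, 3.85 and 4.23 in KO pre-cDC1, and 2.58 and 2.62 in WT pre-cDC2, against 4.33, 4.05 and 4.52 in WT pre-cDC1. It fell by 1.56 log2 in KO (SE 0.28, limma adjusted p = 0.00421) and by 1.70 in WT (SE 0.28, adjusted p = 0.005), with every pre-cDC2 library below every pre-cDC1 library.

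Uqcrfs1 had the next smallest adjusted p in KO. With the values given for complex III, it fell by 0.75 log2 in KO pre-cDC2 (SE 0.15, limma adjusted p = 0.00805) with -0.50 ± 0.15 log2 (adjusted p = 0.0662) in WT. Atp5f1 had 5.25 and 5.62 log2 RPKM in KO pre-cDC2, against 6.31, 5.88 and 6.24 in KO pre-cDC1, and 5.84 and 5.77 in WT pre-cDC2, against 6.31, 6.32 and 6.25 in WT pre-cDC1, and fell by 0.71 in KO (SE 0.17, adjusted p = 0.015) with -0.48 ± 0.17 log2 (adjusted p = 0.0983) in WT. Atp5c1 had 6.97 and 7.10 log2 RPKM in KO pre-cDC2, against 7.85, 7.35 and 7.72 in KO pre-cDC1, and 7.50 and 7.35 in WT pre-cDC2, against 7.93, 8.04 and 7.83 in WT pre-cDC1. It fell by 0.60 in KO (SE 0.17, adjusted p = 0.0346) with -0.51 ± 0.17 log2 (adjusted p = 0.0912) in WT. Uqcrb fell by 0.84 in KO (SE 0.25, adjusted p = 0.0375) with -0.61 ± 0.24 log2 (adjusted p = 0.158) in WT, and Uqcrc2 differed by -0.44 ± 0.16 log2 (adjusted p = 0.0799) in KO and -0.55 ± 0.16 log2 (adjusted p = 0.0541) in WT.

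The balance of higher and lower calls depends on the scaling. With the log2 RPKM values scaled to total reads, limma called 11 members in KO, 9 higher and 2 lower in pre-cDC2, beside 16.1% of all tested genes called higher and 7.72% lower. In WT it called 2, 1 higher and 1 lower, beside 7.64% and 5.36%. The voom method on recovered reads, with the same scaling, called 9 in KO, 8 higher and 1 lower, beside 17.5% and 7.13%, and 2 in WT, 1 higher and 1 lower, beside 9.61% and 5.67%. Centring each library on its median called 11 in KO and 3 in WT, all lower, beside 13.1% and 7.51% of all tested genes called lower. Ndufaf6 was lower in each of these fits. The median over all tested genes was 0.35 log2 in KO and 0.26 in WT under total read scaling, beside 0.09 and 0.06 as deposited. Beside these, the nuclear subunits had medians of 0.35 and 0.17 under total reads and 0.09 and -0.04 as deposited. The mitochondrially encoded subunits had medians of -0.21 in KO and -0.43 in WT as deposited, with 11 of 13 negative in each, and the KO median turned positive under total reads (0.05) and under quantile normalization (0.36).

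No member was called for the interaction of genotype and cell type, with 0.0203% of all tested genes called, and 1 had an unadjusted p below 0.05, beside 4.82% of all tested genes. The 3 members with the smallest p were Ndufs3, by 0.53 ± 0.24 log2 (adjusted p = 0.987), Ndufb10, by 0.56 ± 0.28 log2 (adjusted p = 0.987), and mt-Nd3, by 1.12 ± 0.64 log2 (adjusted p = 0.987). These p-values do not show that KO and WT differ alike in both precursors.

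Promoters of respiratory chain genes are known for binding sites of NRF1, of the ETS factor GABPA and of YY1. Of the 86 nuclear members 71 had a promoter in the RefSeq table (GRCm38.p6), and 250 bases before the start were searched on both strands for letters of each. The NRF1 pattern was GCGC, any 2 bases, GCGC. It stood in 22.5% of the 71, beside 5.64% of all 27025 genes of the table. The ETS pattern CCGGAAG stood in 21.1%, beside 7.83%. The YY1 pattern AAGATGG stood in 1.41%, beside 5.18%. Bases after the start were not searched for any of the patterns. By coding length, the ETS pattern stood in 9 of 31 promoters of members with at most 400 coding bases (29.0%) and 6 of 40 of the others (15.0%). The NRF1 pattern stood in 6 of 31 (19.4%) and 10 of 40 (25.0%). These counts are small, and the difference by length was not tested. All of these shares are descriptions of letters, not of binding.

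The promoters of Cox6a1, with the smallest p in KO against WT, and of Atp5e, among the largest differences, are shown with these letters in capitals. The first is chr5:115348959-115349208 on the minus strand, with 2 NRF1 matches and 1 ETS match, and the second is chr2:174464102-174464351 on the minus strand, with 1 ETS match (the ETS letters appear here as their reverse complement).
Cox6a1: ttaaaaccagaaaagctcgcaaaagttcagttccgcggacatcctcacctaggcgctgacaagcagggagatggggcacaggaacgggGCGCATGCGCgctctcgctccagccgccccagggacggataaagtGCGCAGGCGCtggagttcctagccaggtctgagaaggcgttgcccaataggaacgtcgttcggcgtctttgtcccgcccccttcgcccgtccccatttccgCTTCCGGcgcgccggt
Atp5e: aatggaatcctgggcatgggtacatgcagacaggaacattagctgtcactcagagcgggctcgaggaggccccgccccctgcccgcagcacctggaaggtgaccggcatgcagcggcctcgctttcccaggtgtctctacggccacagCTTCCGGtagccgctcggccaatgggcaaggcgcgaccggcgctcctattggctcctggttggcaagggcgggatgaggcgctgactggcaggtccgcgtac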

How the data were processed

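The authors sequenced RNA of 10 spleen samples in 4 groups. Per the labels' protocols, 2 ng of total RNA entered SMARTSeq v2 amplification with ERCC spike-ins, followed by paired reads of 151 cycles. Per the submitters' processing notes the tools were STAR 2.3, featureCounts 1.5.0 and R 3.3.3 with edgeR, on GRCm38. The authors deposited 1 table of log2 RPKM values per gene. With GENCODE M21 exon lengths these values gave back whole reads for all 49035 genes matched by identifier. The tolerance was 0.001 reads, and wider in proportion for high counts. For the other 3515 genes a length that gave whole reads was searched for, so their fit is by construction. Those with the same value in all libraries were set to 0 reads. The mean added offset was 0.245 reads, so 0 reads appear as a negative log2 value that depends on gene length. Amplified reads carry no molecular identifiers.

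Differences were fitted with limma 3.58.1 (R 4.3.3, trended empirical Bayes) on the deposited log2 RPKM over 14787 genes above 0 in at least 2 libraries, with 1 mean per group, a spread shared by all 4 groups, and two-sided p-values adjusted by Benjamini and Hochberg within each comparison, called below 0.05. In KO against WT, 3 libraries stood against 3 in pre-cDC1 and 2 against 2 in pre-cDC2. The script was tested on simulated data. Other scalings, filters, a pseudocount of 1 RPKM, left-out libraries, a replicate block, total read scaling in limma and voom on the recovered reads were alternatives, the last 2 chosen after seeing the data. Tables were handled with Python 3.11.15, pandas 2.3.3, numpy 2.4.6 and scipy 1.17.1, and drawn with matplotlib 3.10.9.

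The members and lists were chosen with earlier results of these data known. Genes were named if they passed the test or had the 3 smallest p-values of a comparison, were mitochondrially encoded, belonged to a set of paralogues, or were the highest or lowest of their complex. Sdhb, Sdhd, Ndufa10, Atp5e and other members given by difference alone, the motifs and the coding length split of 400 bases were chosen after their values were seen. Processed pseudogenes of nuclear subunits can share reads with them, and this was not measured. Some genes are not reported here.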

Additional observations from a re-analysis of the deposited data

Results flagged for a closer look

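Ndufs3, a core subunit of complex I, lay on opposite sides of WT in the 2 cell types. Its KO minus WT difference was 0.1394 log2 in pre-cDC2, where both KO libraries lay above both WT libraries, and -0.3917 log2 in pre-cDC1, where all 3 KO libraries lay below all 3 WT libraries. The nearest KO and WT libraries nearly met in both cell types, at 4.48 and 4.47 log2 RPKM in pre-cDC2 and at 4.34 and 4.34 in pre-cDC1. The interaction of genotype and cell type was 0.53 ± 0.24 log2 (limma adjusted p = 0.987), so the difference between the cell types did not pass the test over all genes.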

How the results depend on the processing

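Alternatives changed mainly the number of members called between cell types, and each count stands beside the share of all tested genes called in that fit. In KO, 5 were called as deposited (20.8%), 11 after centring (22.1%), 11 with total read scaling in limma (23.9%), 9 with voom (24.6%), 3 with the replicate number as a block (18.0%) and 1 with genotype and number as blocks (7.40%). Leaving out 1 library gave 1 (without KO pre-cDC2 replicate 1, 9.59%) to 7 (without either WT pre-cDC2 library, 26.1% and 26.3%), with 3 called once KO pre-cDC1 replicate 1 (15.5%) or WT pre-cDC1 replicate 3 (18.4%) was dropped. In WT, 1 was called (11.5%), against 2 with a stricter filter (14.3%), 3 after centring (11.6%), 2 with total read scaling in limma (13%), 2 with voom (15.3%), 0 with genotype and number as a replicate block (1.47%, Ndufaf6 adjusted p = 0.0523, limma), and 1 to 4 with 1 library left out (4 without WT pre-cDC2 replicate 3, 10.4%). In every one of these fits the members' share was below that of all tested genes. The same numbers mark no stated shared animal or day, and libraries with the same number did not deviate together (12 pairs, r of -0.03 to 0.03). KO against WT in pre-cDC2 gave 0 members, and 2 without WT replicate 3 (7.09% of all tested genes, in a fit whose single WT library takes its spread from the other groups), so leaving out a library gave 0 to 2. In pre-cDC1 and for the interaction the count was 0 throughout.

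The nuclear less mitochondrial difference was 0.12 log2 for KO against WT in pre-cDC2, with -0.3292 to 0.5612 when 1 library was left out, and 0.29 in pre-cDC1, with 0.1383 to 0.5105. For pre-cDC2 against pre-cDC1 it was 0.19 in KO, with -0.03 to 0.34, and reversed to -0.2482 under quantile normalization. In WT it was 0.36, with -0.0847 to 0.8058. The causes were not tested.

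Of 331 values of single genes under alternatives, 289 kept direction and call, 35 lost the call, 7 gained it and 0 reversed. Between KO cell types Atp5c1 lost its call in 13 (adjusted p 0.0533 to 0.244), Uqcrb in 12 (0.0553 to 0.247), Atp5f1 in 6 (0.0509 to 0.184) and Uqcrfs1 in 3 (0.0513 to 0.123). Between WT cell types Uqcrc2 gained a call in 5 (0.0324 to 0.0468) and Uqcrfs1 in 1 (0.0362). Groups of 2 and 3 libraries limit what the test can call, and mt-Nd3, with 4 to 20 reads per library, is limited by depth.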
